A study of Mus musculus with 2 samples.

Results

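The galectin genes were examined in CD4+ T cells sorted from the spleens of DBA/1 and C57BL/6 mice. Members were the probe sets whose platform gene symbol is Lgals1, Lgals3, Lgals4, Lgals8, Lgals9 or Lgals3bp. All 6 genes were on the array, with 8 of its 22690 probe sets, out of 12393 genes that carried a probe set with only 1 symbol. DBA/1 mice are susceptible and C57BL/6 mice resistant to the arthritis that immunisation with glucose-6-phosphate isomerase (GPI) provokes, and the series asked which molecules are prominent on the T cells of the susceptible strain.

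Both groups were immunised with GPI, and both were taken on day 7 after it. Cells were isolated magnetically as CD4+ T cells, and each strain gave 1 array. No unimmunised mice are among the 2 samples, so strain, array and immunisation response cannot be told apart. The number, age and sex of the mice behind each RNA sample are not stated in the labels. With 1 array per strain there is no replicate error and no test, and each difference below is a difference between these 2 arrays. Values are MAS5 signals, the linear probe set intensities of Affymetrix arrays.

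Galectins are lectins that bind galactose-containing sugar chains on proteins and lipids. They act inside cells and, after leaving them by an unconventional route, outside them, where they cross-link glycoproteins on T cells and other leukocytes. Galectin-1 is a dimer of identical short subunits, galectin-3 joins its sugar-binding domain to a long flexible tail, and galectins 4, 8 and 9 each carry a pair of sugar-binding domains on a single chain. Lgals3bp is no galectin: it encodes a secreted scavenger-receptor glycoprotein that galectins 1 and 3 bind.

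Lgals1 and Lgals3 were higher in DBA/1, and the other 4 members read lower there by less than 2-fold. For Lgals8, Lgals9 and Lgals3bp that lower reading was within the probe error given below. For Lgals4 it rests on a DBA/1 signal close to background. Lgals3 differed by 5.75-fold and Lgals1 by 2.16-fold. Lgals9, Lgals3bp and Lgals8 differed by 1.30-fold, 1.25-fold and 1.22-fold in the opposite direction, and Lgals4 lay close to background. A signal under the array median (37.6 in DBA/1 and 38.04 in C57BL/6) was set to that median, called the floor here, because MAS5 signals near background are unstable. All 6 members were above the floor on both arrays.

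**Figure D1:**
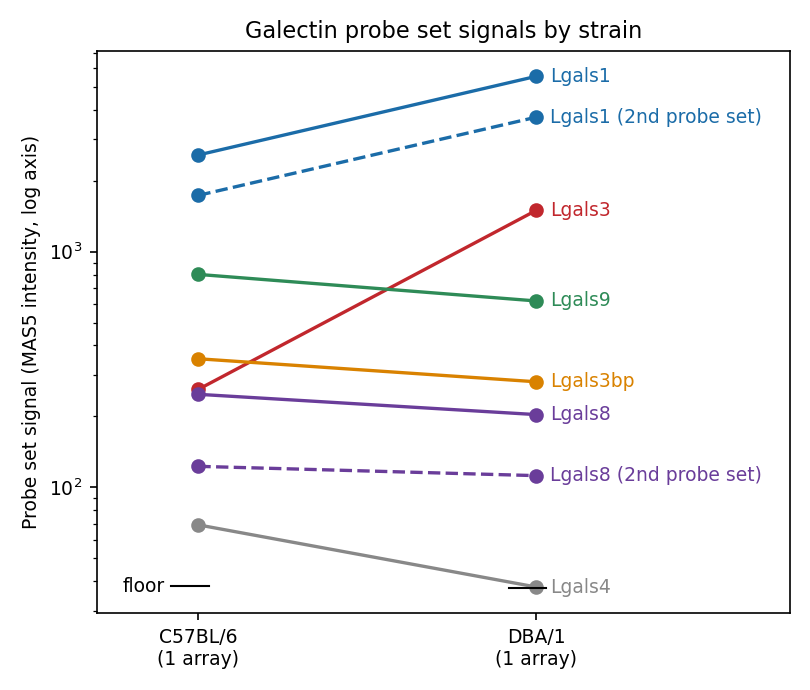
MAS5 signals (log axis) of the 8 galectin probe sets on the C57BL/6 and the DBA/1 array, 1 array each, with each array's floor as a short black line; dashed lines are second probe sets of a gene. Lgals3 went from 260.7 to 1499 and both Lgals1 probe sets were higher in DBA/1, whereas the lines of Lgals9, Lgals3bp, Lgals8 and Lgals4 fall from left to right.

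At 2-fold, 2 of the 6 member genes were higher in DBA/1 and 0 were higher in C57BL/6. Over all 6936 genes above the floor on at least 1 array, 3.84% exceeded 2-fold towards DBA/1 and 1.9% towards C57BL/6. Of the 3920 genes whose signal reached the 75th percentile of an array, which 5 members did, these shares were 3.98% and 1.99%. The median log2 ratio of DBA/1 over C57BL/6 was 0.10 over the 6936 genes and -0.31 over the 6 members, and 60.6% of the 6936 genes were higher in DBA/1.

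The error of a probe set was taken from genes measured by a pair of them. Over 2325 genes with a pair above the floor on both arrays, the log2 ratios of the pair differed with an SD of 0.43, or 0.31 per probe set. Among 935 genes with both probe sets at or above the 75th percentile on both arrays, it was 0.24 per probe set. This covers probe error only, not variation between mice, cell sorts or labelling reactions. The log2 ratio plus or minus 2 such errors of 0.31 is given below as the probe error range.

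Galectin-3, known to immunologists as Mac-2 and used as a macrophage marker, is abundant in macrophages and neutrophils and is also made by activated lymphocytes. Its only probe set (1426808_at) read 1499 in DBA/1 and 260.7 in C57BL/6, both well over the floor, by factors of 39.9 and 6.85. The log2 ratio was 2.52, with a probe error range of 1.91 to 3.14. It ranked 20 from the top among the 3920 genes at or above the 75th percentile. The ratio stayed between 2.39 and 2.52 under the 8 settings of scaling and floor that were tried, so it was beyond 4-fold in each. A change of floor could not move it, since both signals lay above each floor tried.

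Galectin-1 is induced when T cells are activated, is plentiful in regulatory T cells, macrophages and stroma, and can trigger the death of T cells that carry suitable sugars. Its first probe set (1455439_a_at) read 5551 in DBA/1 and 2574 in C57BL/6. The second (1419573_a_at) read 3724 and 1735. Both were far over the floor, and both gave nearly the same ratio, 2.16-fold and 2.15-fold, on the log2 scale 1.11 and 1.10. These log2 ratios lay 0.0063 apart, against the SD of 0.43 over gene pairs. The probe error range of the first was 0.50 to 1.72. After quantile normalization and after lowess on intensity it fell just short of 2-fold, at log2 ratios of 0.92 and 0.96. Lgals1 ranked 117 from the top among the 3920 genes.

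**Figure D2:**
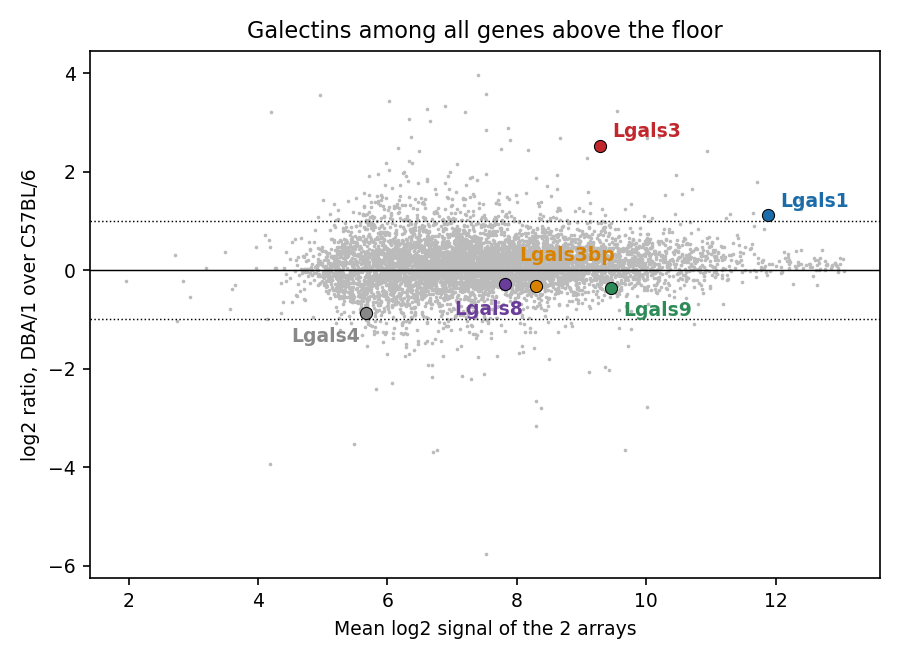
Log2 ratio of DBA/1 over C57BL/6 against the mean log2 signal of the 2 arrays for the 6936 genes above the floor (grey) with the 6 galectin members in colour; dotted lines mark 2-fold. Lgals3 (2.52) and Lgals1 (1.11) sit above the upper dotted line, and Lgals4 (-0.88), Lgals9 (-0.37), Lgals3bp (-0.32) and Lgals8 (-0.29) below 0.

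Galectin-9, which is induced by interferons and binds the inhibitory receptor TIM-3 on T cells, read 618 in DBA/1 and 801 in C57BL/6 (1421217_a_at). Its log2 ratio was -0.37, with a probe error range of -0.99 to 0.24 that includes 0. Galectin-8 marks damaged vesicles inside cells by binding the sugars exposed there. Its brighter probe set (1422662_at) read 204 and 248, a log2 ratio of -0.29, and its second (1422661_at) read 112 and 123, a log2 ratio of -0.13. The probe error range of the brighter, -0.90 to 0.33, also includes 0.

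Lgals3bp, itself an interferon-responsive gene, read 281 in DBA/1 and 351 in C57BL/6 (1448380_at). Its log2 ratio was -0.32, with a probe error range of -0.94 to 0.29. The 3 genes Lgals9, Lgals8 and Lgals3bp were lower in DBA/1 under all 8 settings, over which their log2 ratios spanned -0.51 to -0.36, -0.37 to -0.25 and -0.43 to -0.29. A change of floor could not move them, since their signals lay above each floor tried, and each scaling moved them lower. None of these 3 differences exceeded the probe error range. Their offset from all genes was larger than their offset from 0, since most genes were slightly higher in DBA/1. Counted from the C57BL/6 end of the 3920 genes, Lgals9 ranked 369, Lgals3bp 446 and Lgals8 525.

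Lgals4, chiefly a gene of the intestinal epithelium, read 37.8 in DBA/1 and 69.3 in C57BL/6 (1451336_at). The DBA/1 signal was at 1.01 times the floor. The log2 ratio of -0.88 had a probe error range of -1.49 to -0.26, which excludes 0. That error was not estimated separately for signals this close to the floor. The ratio stayed negative, from -0.96 to -0.54, in every setting except the floor at the 60th percentile of each array. There both signals were set to the floor, so the value of 0.031 compares the floors and not Lgals4. Its size is not settled, and its direction rests on a DBA/1 signal at the floor. A near-identical copy, Lgals6, exists in some mouse strains, and which copy the signals came from was not tested.

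**Figure D3:**
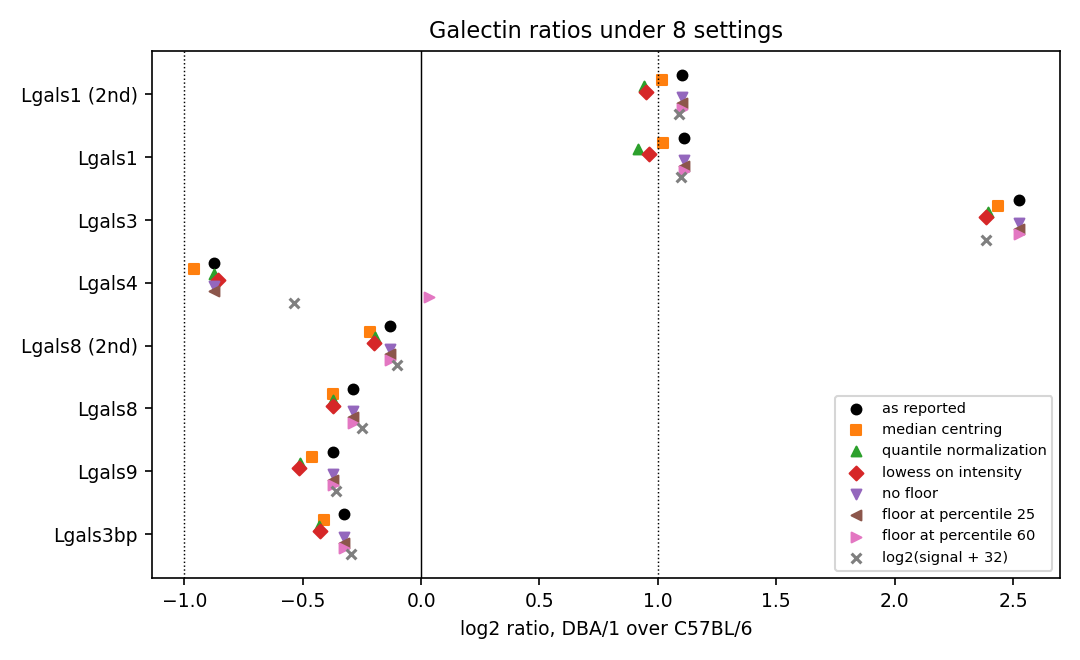
Log2 ratio of DBA/1 over C57BL/6 for each of the 8 galectin probe sets as reported and under 7 alternatives of scaling, floor or added constant; (2nd) marks the second probe set of a gene. Lgals3 stays between 2.39 and 2.52, Lgals1 spans 0.92 to 1.11 around the dotted 2-fold line, and Lgals4 spans -0.96 to 0.031. The Lgals4 value of 0.031 has both its signals set to the floor.

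Members were called higher or lower from these same ratios, so a gap between a higher and a lower member was fixed in advance. Its size is given beside the disagreement between probe sets of 1 gene, which covers probe error only. With each gene given by its brighter probe set and Lgals4 left aside, the closest such pair, Lgals1 and Lgals8, lay 1.39 apart on the log2 scale, and Lgals3 and Lgals9 lay 2.90 apart, against the SD of 0.43. Lgals3 and Lgals1 themselves differed by 1.41. The 3 lower members Lgals8, Lgals3bp and Lgals9 lay within 0.088 of each other.

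Of 7 further galectin-family genes looked up, 4 had a probe set under their own symbol. Lgals2, Lgals7 and Lgals12 were under the floor on both arrays, with no signal over 11.0, so no difference was detectable. The galectin-related protein gene Lgalsl, whose product lacks galactose binding, had signals near the floor, 81.6 and 48.1, with DBA/1 the higher by 1.70-fold. Its second probe set read 39.7 and 17.7.

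Promoter sequences from RefSeq (GRCm38.p6) were found for 5 of the 6 members. The 250 bases before the gene start are shown for the member with the largest difference and for the 2 members known to respond to interferon, because interferon response genes also differed between these arrays. Capitals mark matches, on either strand, to a GC box (GGGCGG) or to an interferon-response-like element, here GAAA, any 2 bases, GAAA.
Lgals3, chr14:47373610-47373859, + strand: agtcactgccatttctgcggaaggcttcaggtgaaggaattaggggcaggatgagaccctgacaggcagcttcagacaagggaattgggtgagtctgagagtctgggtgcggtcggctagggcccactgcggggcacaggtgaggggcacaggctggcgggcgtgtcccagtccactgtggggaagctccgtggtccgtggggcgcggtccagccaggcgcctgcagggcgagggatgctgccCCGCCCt
Lgals9, chr11:78984925-78985174, - strand: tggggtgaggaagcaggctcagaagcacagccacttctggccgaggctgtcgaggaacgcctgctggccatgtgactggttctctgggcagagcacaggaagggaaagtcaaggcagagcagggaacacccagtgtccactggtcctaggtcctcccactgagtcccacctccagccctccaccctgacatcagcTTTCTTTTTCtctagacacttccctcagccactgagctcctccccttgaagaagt
Lgals3bp, chr11:118401960-118402209, - strand: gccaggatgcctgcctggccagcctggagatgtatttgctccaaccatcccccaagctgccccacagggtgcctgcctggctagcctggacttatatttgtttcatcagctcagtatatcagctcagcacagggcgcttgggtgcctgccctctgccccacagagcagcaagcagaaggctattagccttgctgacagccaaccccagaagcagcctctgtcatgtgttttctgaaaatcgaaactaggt

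The Lgals9 window held 2 matches to the interferon-response-like element, 1 from 55 to 46 bases before the start and 1 from 16 to 25 bases after it. The second, on chr11:78984892-78984917, is shown with its flanks because it lies outside the bases printed above.
Lgals9, after the start: agctgtggTTTCTGTTTCctagctca

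Such a match was present in 3.44% of all 32851 promoter windows of 300 bases. The windows of Lgals3, Lgals3bp, Lgals4 and Lgals8 held no match to these letters. Only exact matches were counted, so a near match in any window would be missed. The Lgals3 window had GC boxes from 7 to 2 bases before the start and from 5 to 10 bases after it, and 35.7% of all windows held a GC box. Lgals4 also had a GC box, and the other 3 windows did not. These matches describe the letters and not the use of any site. The bases before the start were 66% G or C in Lgals3, 58.4% in Lgals9 and 55.6% in Lgals3bp.

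Beside Lgals9 and Lgals3bp, 22 of 25 interferon response genes above the floor on at least 1 array (called usable below) were lower in DBA/1, and 7 of them were at least 2-fold lower, or 4 with log2(signal + 32). Over all genes 60.6% were higher in DBA/1 and 1.9% at least 2-fold lower. The list median was -0.60, beside 0.10 over all genes. Trim30a (340 in DBA/1 and 1389 in C57BL/6), the antiviral gene Rsad2 (102 and 266) and the deubiquitinase gene Usp18 (104 and 257) had the largest ratios in that direction among genes measured on both sides, and the antiviral Oasl2 was at least 2.37-fold lower in DBA/1. The second probe set of Trim30a read 387 and 527, a log2 ratio of -0.45 beside -2.03 for the first. Gbp3, a guanylate-binding protein gene, was higher there (238 and 87.7). Lgals9 and Lgals3bp moved less than most of the list: 19 and 20 of the 25 genes had lower ratios. Their place was not particular to them, since 20 of the 25 also had lower ratios than Lgals8.

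Galectins act through sugar-bearing proteins on the cell surface. Of 33 genes for such counter-receptors and partners, 29 were above the floor on at least 1 array. At least 2-fold higher in DBA/1 were 7 of the 29, or 24.1%, beside 3.84% of all genes, and 0 were 2-fold higher in C57BL/6. Raising the floor to percentile 60 left 4 such genes, log2(signal + 32) left 3, and the count was 5 with the mean over probe sets or without cross-hybridising probe sets. The median log2 ratio was 0.35, beside 0.10 over all genes, and 0.18 with the mean over probe sets. For 3 of the 7 a signal reached the 75th percentile. The list was chosen with earlier results of these data known. Past 2-fold towards DBA/1 were also 14 of 15 neutrophil, 6 of 17 monocyte and macrophage and 7 of 9 B cell genes. None of 10 T cell identity genes and none of 7 CD8 T cell genes were. The part of other cell types in the partner genes was not tested.

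Cd7, a galectin-1 receptor in T cell death, read 771 in DBA/1 and 323 in C57BL/6, or 2.39-fold. Lamp2, a heavily glycosylated lysosomal protein gene, read 722 and 314, and its other 3 probe sets gave log2 ratios of 0.38, 1.31 and 0.91. Havcr2, which encodes TIM-3, the receptor of galectin-9, read 137 and 65.3. It has 1 probe set, with a log2 ratio of 1.07. The probe error range of Lgals9 includes 0, so no contrast between receptor and ligand is drawn.

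Fcgr2b, the inhibitory Fc receptor gene, read 197 and 88.2, and its other 3 probe sets gave log2 ratios of 0.64, 1.31 and 0.93. Alcam, an adhesion molecule gene, read 130 and 59.8, and its second probe set gave 0.70 on the log2 scale. Itgam, the myeloid integrin chain of Mac-1, reached 94.1 in DBA/1, while its C57BL/6 signal of 26.7 lay below the floor, so it was at least 2.47-fold lower there. The seventh was Cd244a (148 and 72.3), named after its value was seen.

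The other classical receptors of galectin-1 on T cells differed less. Ptprc (CD45) read 6133 in DBA/1 and 5604 in C57BL/6, and Spn (CD43) read 217 and 233. Cd44, a receptor of galectins 8 and 9, had a log2 ratio of -0.24 with 1 probe set and 0.32 with the other. Itgb1, the integrin beta-1 chain bound by several galectins, read 705 and 439, or 1.61-fold, and its other bright probe set gave a log2 ratio of 1.22.

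**Figure D4:**
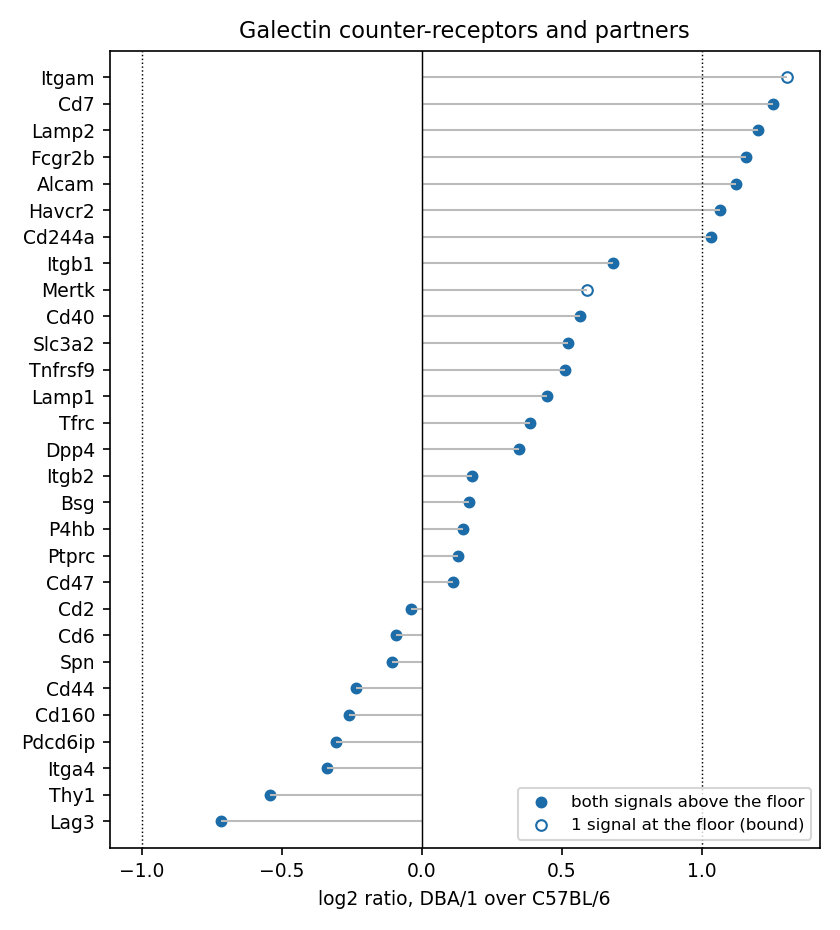
Log2 ratio of DBA/1 over C57BL/6 for the 29 galectin counter-receptor and partner genes above the floor, sorted by ratio; open circles are bounds with 1 signal at the floor and dotted lines mark 2-fold. The points at or past the right-hand dotted line are the 7 genes from Cd244a to Itgam, and none lies past the left-hand line, where Lag3 (-0.72) and Thy1 (-0.54) come nearest.

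Of the enzymes that build or trim galectin-binding sugars, 0 were 2-fold apart by their brightest probe sets. With the floor at percentile 25, 1 was past 2-fold towards C57BL/6. This was Neu3 (8.49 in DBA/1 and 29.3 in C57BL/6), whose signals lay under the array median on both arrays. The list of 26 had 20 usable genes, of which 14 leaned towards DBA/1, as did 60.6% of all genes, and their median log2 ratio was 0.24, beside 0.10 over all genes. The sialyltransferase gene St3gal4 was nearest to 2-fold (177 in DBA/1 and 91.2 in C57BL/6). The next were the sialyltransferase St3gal6 (66.7 and 95.7), the fucosyltransferase Fut8 (239 and 171), the sialyltransferase St3gal2 (119 and 88.1) and the branching enzyme Mgat2 (311 and 231). The second probe set of St3gal6 passed 2-fold, at a log2 ratio of -1.01. Other probe sets were at -0.61 for Mgat2, opposite in sign, and at 0.074 and -0.17 for St3gal2, the last opposite in sign too. Mgat5, which makes the branched chains that galectin-3 favours, was under the floor on both arrays.

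Defining genes of CD4+ T cells were well above the floor, and most were close between the 2 samples. For Cd4 the signals were 913 in DBA/1 and 857 in C57BL/6. For Cd3e they were 747 and 791. By their brightest probe sets none of 10 T cell identity genes was 2-fold apart, with summed signals of 11703 and 12573 (DBA/1 first throughout) and a median log2 ratio of -0.12. The 3 largest ratios among them were those of the kinase gene Zap70 (-0.67), the transcription factor gene Lef1 (-0.53) and the adaptor gene Trat1 (0.38). Cd247, a T cell receptor signalling chain gene, was at -0.24, but its second probe set read 193 and 424, a log2 ratio of -1.13. Lgals3 and Lgals1 had higher ratios than all 10 of them and than all 17 usable genes of T cell activation and helper programmes, whose median was 0.23. The largest ratios among the latter were those of the cytokine gene Ifng (-1.39), its regulator Tbx21 (-0.98) and the cytokine gene Il21 (a bound of 0.92). Next came the costimulatory gene Icos (0.77, second probe set 1.05) and the proliferation gene Top2a (0.69).

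Lists of neutrophil, monocyte and macrophage, dendritic, B and plasma cell markers had medians in the direction of Lgals3 and Lgals1. Each of the 15 measured neutrophil genes leaned towards DBA/1, 14 by 2-fold or more, with summed signals of 35729 and 10834 and a median log2 ratio of 1.79. Monocyte and macrophage genes were higher in 17 of 17, with 6 at least 2-fold, summed signals of 9634 and 5144 and a median of 0.86. Dendritic cell genes had a median of 0.88 over 9 (sums 5842 and 3507), B cell genes 1.09 over 9 (sums 1799 and 972) and plasma cell genes 0.64 over 4 (sums 1885 and 1306). Summed signals throughout cover all measured genes of a list, those under the floor included, whereas medians cover usable genes only. The largest log2 ratios were those of Fpr2 (3.97), Cd177 (2.84) and Lcn2 (2.71) among neutrophil genes, Hmox1 (1.77), Fcgr3 (1.73) and Lyz2 (1.65) among monocyte and macrophage genes, and Fscn1 (1.70, second probe set 0.85), Cst3 (1.54) and Cd209a (1.37) among dendritic cell genes. Of the 9 dendritic cell genes 3 were lower in DBA/1, Ccr9 (-1.26), Bst2 (-0.74) and Irf8 (-0.33). Among B cell genes they were Cd72 (-1.70, lower in DBA/1), Blk (a bound of 1.51) and Cd22 (1.30), and among plasma cell genes Irf4 (0.86), Jchain (0.84) and Prdm1 (0.43). In signals, the cathelicidin gene Camp read 4546 and 854, the lysozyme gene Lyz2 2974 and 948, and the B cell receptor chain gene Cd79a 167 and 81.5.

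The place of the galectins among these markers differed by gene. The ratio of Lgals3 was higher than that of all 17 monocyte and macrophage genes, all 9 dendritic cell genes and all 9 B cell genes, and lower than that of 4 of 15 neutrophil genes. The ratio of Lgals1 was lower than that of 14 of 15 neutrophil genes and 4 of 17 monocyte and macrophage genes. The 4 lower members had lower ratios than all 15 neutrophil and all 17 monocyte and macrophage genes. The part of other cell types in the Lgals3 and Lgals1 differences was not tested, and in bulk RNA a change in the number of cells of a type and a change in RNA per cell cannot be told apart.

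Other lists moved less or the other way. CD8 T cell genes were lower in DBA/1 in 7 of 7, with a median of -0.97 and summed signals of 406 and 1098. Its largest ratios were those of Cd8b1 (at least 5.30-fold lower in DBA/1), Nkg7 (-1.92) and Klrk1 (-1.06). NK cell genes had a median of -0.49 over 5 (sums 2916 and 2435), led by Klrd1 (-1.69), Il2rb (-1.27, second probe set -0.46) and Gzmb (0.91). Erythroid genes had a median of 0.017 over 6 (sums 1991 and 1908), led by Car1 (0.91), Hbb-b2 (-0.74) and Klf1 (0.46). The NK cell sums ran opposite to the median, and Tyrobp (2381 and 1343) made up most of them. Of 5 measured platelet genes, 2 were above the floor, Ppbp (0.42) and Pf4 (0.37). Of 12 epithelium and stroma genes only Pecam1 was above the floor, and the epithelial markers Epcam, Krt8 and Vil1 were under it on both arrays, beside an Lgals4 signal near the floor.

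**Figure D5:**
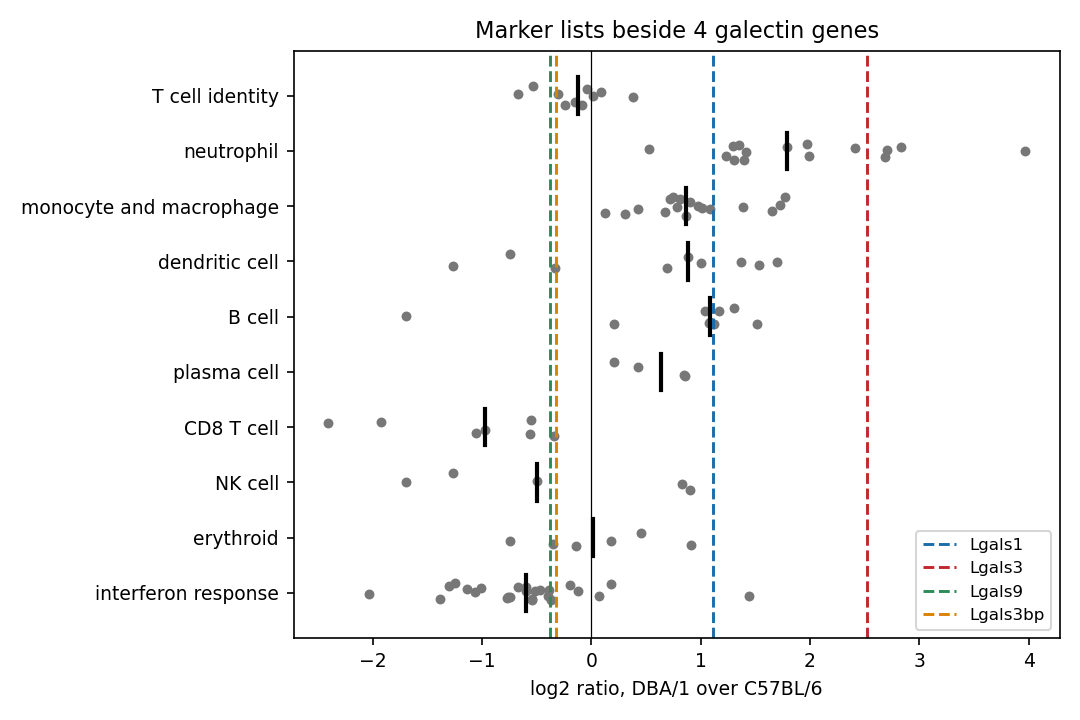
Log2 ratio of DBA/1 over C57BL/6 for each marker gene above the floor (grey points, vertical jitter only) in 10 lists, with each list's median as a black bar and 4 galectin genes as dashed lines. The Lgals3 line (2.52) lies right of every macrophage, dendritic and B cell point and of 11 of 15 neutrophil points. The Lgals9 (-0.37) and Lgals3bp (-0.32) lines lie within the interferon response points. Both also lie within the T cell identity, dendritic cell, B cell, NK cell and erythroid points.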

How the data were processed

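The deposited table holds linear intensities per probe set, 1 column per array. MAS5 is named in the submitters' processing notes, with version and scaling target not given in the sources used here. Such processing leaves low signals unstable and carries no detection call in this table. Labelling began from an oligo(dT) primer, per the labels' protocols, which favours 3' ends.

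Values were used as deposited; where both signals passed the floor, the median log2 ratio of probe sets was 0.085, so DBA/1 values ran slightly higher. Gene symbols came from the platform annotation, and probe sets with several symbols or none, and 64 control probe sets, were left out. A gene is given by its probe set of highest mean log2 signal. Ratios with 1 side at the floor are bounds. Genes were called at 2-fold, without a test, since each strain has 1 array; the number of arrays limits the precision. The calculation was tested on simulated data. Members and the 16 lists were chosen with earlier results of these data known, and so was the choice of promoter motifs.

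The text names every member probe set, the other family genes, the 5 genes of largest absolute ratio per pathway list and the 3 per cell list, and the preset genes Cd4, Cd3e, Cd7, Havcr2, Cd44, Ptprc, Spn, Itgb1, Mgat5, Camp, Lyz2 and Cd79a; 1 further preset gene is not reported here. Thy1, Lag3, Cd244a, Cd247, Ccr9, Bst2, Irf8, Tyrobp, Epcam, Krt8, Vil1 and Neu3 were named after their values were seen. Alternatives were median centring, quantile normalization, lowess (span 0.3), a floor at percentile 25 or 60 or none, log2(signal + 32), the mean over probe sets, omission of _s_at and _x_at probe sets, other thresholds and minimum signals. A planned protein comparison was not analysed here. Software was Python 3.11.15, numpy 2.4.6, pandas 2.3.3, statsmodels 0.14.6 and matplotlib 3.10.9.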

Additional observations from a re-analysis of the deposited data

How the results depend on the processing

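Lgals3 was beyond 2-fold, and Lgals8, Lgals9 and Lgals3bp lower in DBA/1, under all 7 alternatives of scaling and floor. The changes of floor among them could not move these ratios. The count of 2 members at least 2-fold higher in DBA/1 became 1 after quantile normalization, after lowess and at a 4-fold threshold, because Lgals1 fell under the threshold. The count of 0 in the other direction became 1 at 1.5-fold, through Lgals4. Lgals4 itself moved to -0.54 under log2(signal + 32). Its value became 0.031 when the floor was raised to percentile 60, which set both its signals to the floor. Requiring a signal at percentile 50, 75 or 90, the mean over probe sets and omission of cross-hybridising suffixes left both member counts as they were. Counter-receptor and partner genes past 2-fold towards DBA/1 numbered 7 as reported, 4 when the floor was raised to percentile 60, and 3 under log2(signal + 32). Without Itgam, which is also on a cell list, the count was 6, an alternative chosen after seeing the data. It drops only genes on the lists used here, and the part of other cell types in the rest was not tested. Interferon response genes at least 2-fold lower in DBA/1 numbered 7 as reported and 4 with log2(signal + 32). Of the glycan enzymes, 1 was at least 2-fold lower in DBA/1 with the floor at percentile 25, Neu3, whose signals lay under the array median on both arrays. No paired analysis was possible because each strain has 1 array. Of 492 alternative values computed over all results and lists, 463 stayed within the limits set for them and 29 moved. A log2 ratio or list median stayed if it changed by less than 0.31, and a count if it changed by at most 1.5-fold. Some of the 463 were ratios far above the floor, which a change of floor could not move. Apart from Lgals1 and Lgals4 the cause of the moves was not tested. Signals close to the floor limit Lgals4 and the other family genes.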
